A study of Mus musculus with 8 samples.

Results

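The S100 genes encode small calcium-binding proteins with a pair of EF-hand loops, the helix-loop-helix fold that holds a calcium ion. Here 8 members of the mouse family (S100a1, S100a4, S100a6, S100a8, S100a9, S100a10, S100a11 and S100a13) were followed through RNA-seq libraries of sorted hematopoietic stem cells (HSCs), out of 14 S100 genes that the expression tables list and 16729 genes in all. These 8 were selected on their levels in these same libraries, so their differences between groups are given as a description, and where members past a threshold are counted, the count is no test. Phenylhydrazine (PHZ) lyses red blood cells and causes an acute hemolytic anemia. Wild-type C57BL/6 mice received 60 mg/kg PHZ by 2 intraperitoneal injections on consecutive days. On day 3 after the second dose, sorted bone marrow cells gave 3 libraries (PHZ BM HSC) and sorted spleen cells gave 2 libraries (PHZ SP HSC). The comparison group was bone marrow HSCs of wild-type C57BL/6 mice given PBS per the labels, although the study's text calls these mice untreated (control BM HSC, 3 libraries). The study used mice of both sexes, 8 to 12 weeks of age, and its methods define HSCs as lineage- Sca-1+ c-kit+ CD150+ CD48-/low cells. Spleen HSCs of mice without PHZ were not analysed here, so organ and treatment cannot be told apart when PHZ SP HSC are set against control BM HSC, and how many animals contributed to a library was not stated. Values are FPKM, read counts scaled for library size and for gene length. The gene lengths are not given in the sources used here, so comparisons between genes rest on lengths that could not be checked.

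On calcium binding, most S100 dimers expose a hydrophobic cleft that docks a target protein, so the family acts through partners and not as enzymes. S100a4 binds non-muscle myosin IIA and is known for its part in cell motility, and S100a6 (calcyclin) binds annexins and the calcyclin-binding protein Cacybp. S100a8 and S100a9 form calprotectin, an abundant metal-binding heterodimer of the neutrophil and monocyte cytosol that signals through Tlr4 and Ager once released. S100a10 (p11) has lost calcium binding and pairs with annexin A2 at membranes, S100a11 pairs with annexin A1, S100a1 regulates calcium handling in muscle, and S100a13 takes part in the unconventional release of fibroblast growth factor 1.

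The 8 libraries held 8216626 to 13201359 reads recovered from the FPKM steps, of which 43.3% to 48.6% lay in the ribosomal RNA gene Rn45s, and the 8 S100 genes took 4763 to 19850 reads of a library. All 18 HSC marker genes examined reached 1 FPKM in each group, among them Kit with 83.6 to 150.0 FPKM and Ly6a, which encodes Sca-1, with 85.6 to 234 FPKM. No library was set aside. PHZ BM HSC replicate 3 was the highest marrow library for S100a4, S100a6, S100a8 and S100a9, and the fitted differences of these genes from PHZ BM HSC are given with and without it.

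All 8 genes lie on chromosome 3 of mm10. S100a1 (90511034 to 90514330), S100a13 (90514233 to 90524581), S100a4 (90603770 to 90606045), S100a6 (90612894 to 90614414), S100a8 (90669071 to 90670034) and S100a9 (90692630 to 90695721) form the main cluster, and S100a11 (93520496 to 93526288) and S100a10 (93555117 to 93564645) lie 2824774 bases beyond it. S100a4 and S100a6 are 6848 bases apart, and S100a8 and S100a9 are 22595 bases apart. S100a1 and S100a13 overlap by 98 bases on opposite strands, and since the strand setting of the counting was not stated, reads in that stretch cannot be assigned to either gene with certainty.

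The 250 bases before the RefSeq start of S100a4, S100a6, S100a8 and S100a9 are shown because these 4 genes had the largest fitted differences of the 8 and lie in 1 cluster. They are written 5′ to 3′ in the direction of transcription (GRCm38.p6), and capitals mark matches on either strand to TATAAA for the core promoter box, TGANTCA for the AP-1 site, AGATAA for the Gata1 and Gata2 site, TTNNGNAAT for the C/EBP site or GAGGAAGT for the PU.1 site. S100a4 occupies chr3:90603520-90603769 on the plus strand, S100a6 chr3:90612644-90612893 on the plus strand, S100a8 chr3:90668821-90669070 on the plus strand and S100a9 chr3:90695722-90695971 on the minus strand.
S100a4: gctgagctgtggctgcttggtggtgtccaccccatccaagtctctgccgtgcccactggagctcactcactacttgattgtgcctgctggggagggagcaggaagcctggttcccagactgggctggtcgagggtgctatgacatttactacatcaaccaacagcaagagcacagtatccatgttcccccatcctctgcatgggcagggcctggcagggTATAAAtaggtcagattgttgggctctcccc
S100a6: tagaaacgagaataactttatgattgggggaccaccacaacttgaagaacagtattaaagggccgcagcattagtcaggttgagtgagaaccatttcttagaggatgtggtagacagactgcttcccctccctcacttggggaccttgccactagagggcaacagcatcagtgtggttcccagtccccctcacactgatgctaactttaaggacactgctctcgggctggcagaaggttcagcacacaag
S100a8: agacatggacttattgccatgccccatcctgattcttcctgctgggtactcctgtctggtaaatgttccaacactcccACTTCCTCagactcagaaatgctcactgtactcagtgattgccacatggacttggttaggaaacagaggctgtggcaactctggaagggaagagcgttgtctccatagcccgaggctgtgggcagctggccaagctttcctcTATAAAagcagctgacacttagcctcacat
S100a9: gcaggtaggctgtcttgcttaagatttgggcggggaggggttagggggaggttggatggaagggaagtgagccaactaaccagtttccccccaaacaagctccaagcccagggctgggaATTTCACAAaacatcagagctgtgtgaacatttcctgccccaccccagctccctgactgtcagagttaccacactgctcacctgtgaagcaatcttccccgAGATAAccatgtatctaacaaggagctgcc
S100a4 had the letters TATAAA from 31 to 26 bases before its start, and S100a8 had them from 30 to 25 bases before its start. S100a8 also held a PU.1 match from 172 to 165 bases upstream, read on the minus strand. S100a9 held a C/EBP match from 131 to 123 bases upstream and the Gata1 and Gata2 letters from 30 to 25 bases upstream, whereas S100a6 held none of the 5 motifs in this window. No 2 of these matches overlapped. Of the 32851 windows of the same length before annotated starts, 12.4% held TATAAA, 9.99% the Gata1 and Gata2 letters, 10.2% the C/EBP letters, 6.75% the AP-1 letters and 2.44% the PU.1 letters. Among the 11400 windows of tested genes the shares were 6.44%, 5.99%, 6.46%, 4.2% and 2.62%. Of the 7 members with an entry, the AP-1 letters occurred only upstream of S100a11.

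S100a4 was the member with the largest difference between spleen and marrow. It measured 22.3, 34.3 and 36.5 FPKM in control BM HSC, 28.4, 47.2 and 78.0 FPKM in PHZ BM HSC and 427 and 516 FPKM in PHZ SP HSC. Both spleen libraries stood above all 6 marrow libraries, and the lower spleen value was 5.48 times the highest marrow value, or 9.05 times without PHZ BM HSC replicate 3. The group means were 31.1 ± 7.64 FPKM (SD, n = 3), 51.2 ± 25.0 FPKM (n = 3) and 472 ± 62.3 FPKM (n = 2), so that mean FPKM in spleen was 15.2 times that of control marrow and 9.21 times that of PHZ marrow. On the log2(FPKM + 1) scale of the limma fit, the difference was 3.91 ± 0.34 (SE) for spleen over control marrow and 3.29 ± 0.34 for spleen over PHZ marrow. The values rested on 159 to 734 reads in marrow and 3480 to 3906 in spleen. Between the marrow groups the fitted difference was 0.62 ± 0.30, the libraries overlapped, and without PHZ BM HSC replicate 3 it was 0.26, with 3.64 for spleen over PHZ marrow. In bulk RNA, more cells of a type and more RNA per cell cannot be told apart.

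S100a6 had the same order of group means, with a lower level than S100a4 in spleen. It measured 36.2, 36.0 and 26.0 FPKM in control BM HSC, 27.6, 36.3 and 52.3 FPKM in PHZ BM HSC and 135 and 179 FPKM in PHZ SP HSC. Again both spleen libraries lay above every marrow library, with the lower one 2.59 times the highest marrow value (3.73 times without PHZ BM HSC replicate 3). Mean FPKM was 32.7 ± 5.84 (SD, n = 3) in control BM HSC, 38.7 ± 12.5 (n = 3) in PHZ BM HSC and 157 ± 31.0 (n = 2) in PHZ SP HSC. The fitted log2 difference was 2.23 ± 0.26 against control marrow and 2.03 ± 0.26 against PHZ marrow, and 0.20 ± 0.23 between the marrow groups. Without PHZ BM HSC replicate 3 the last 2 were 2.26 and -0.03. Within the pair, the ratio of S100a4 to S100a6 FPKM was 0.617 to 1.49 in the 6 marrow libraries and 3.16 and 2.88 in the spleen libraries, so both spleen ratios were above all marrow ratios.

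**Figure D1:**
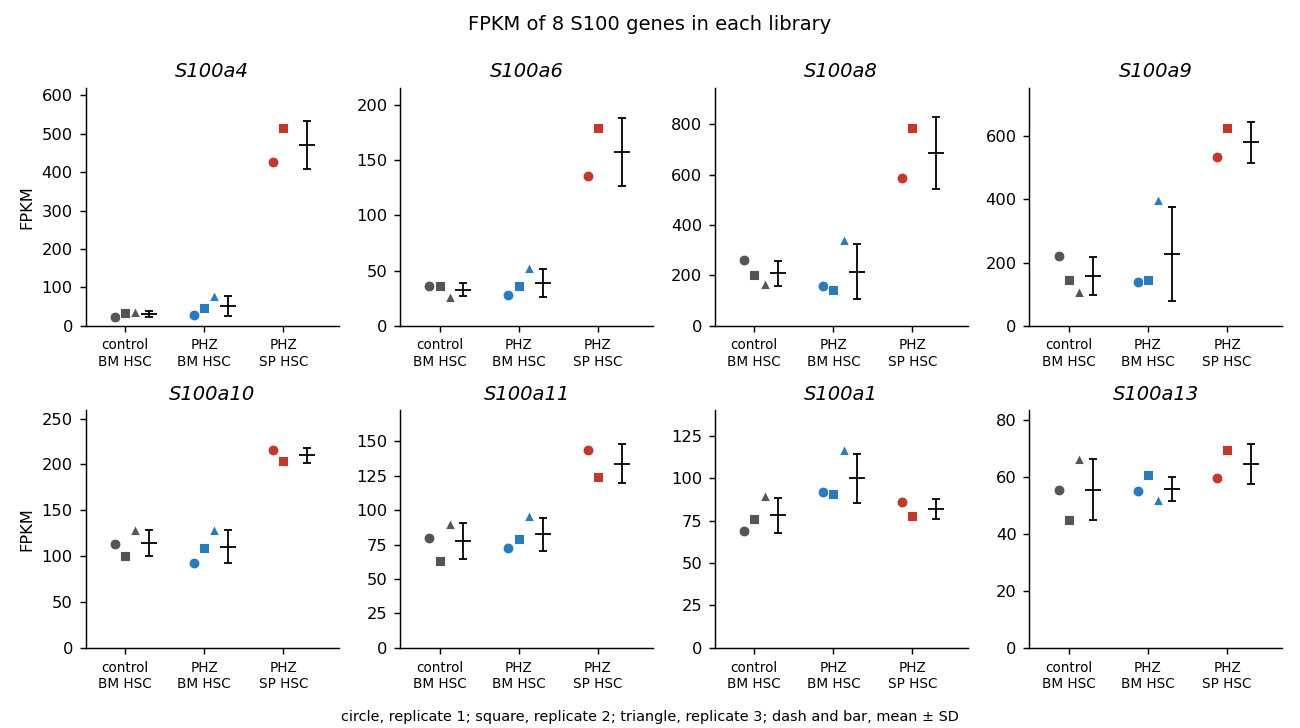
FPKM of the 8 S100 genes (y axis, linear, from 0) in each library, by group (x axis). Points are libraries, and the dash with bars is the group mean ± SD over 3, 3 and 2 libraries. S100a4 and S100a6 lie apart in the spleen libraries, at 427 and 516 FPKM and at 135 and 179 FPKM, and PHZ BM HSC replicate 3 is the highest marrow library for S100a4, S100a6, S100a8 and S100a9, at 78.0, 52.3, 341 and 399 FPKM.

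S100a8 and S100a9 had the highest mean FPKM of the 8 members in all 3 groups. S100a8 measured 263, 200.5 and 165 FPKM in control BM HSC, 158, 144 and 341 FPKM in PHZ BM HSC and 587 and 786 FPKM in PHZ SP HSC. S100a9 measured 222, 143 and 106 FPKM in control BM HSC, 137, 144 and 399 FPKM in PHZ BM HSC and 535 and 627 FPKM in PHZ SP HSC. For both genes the spleen libraries were above all marrow libraries, but by less than for S100a4, since the lower spleen value was 1.72 times the highest marrow value for S100a8 and 1.34 times for S100a9. Without PHZ BM HSC replicate 3 these were 2.23 and 2.41 times. S100a8 averaged 209 ± 49.8 FPKM (SD, n = 3), 214 ± 109.8 FPKM (n = 3) and 686 ± 141 FPKM (n = 2), and S100a9 averaged 157 ± 59.2, 227 ± 149 and 581 ± 64.9 FPKM. The fitted log2 difference of S100a8 was 1.72 ± 0.32 in spleen against control marrow and 1.77 ± 0.32 against PHZ marrow. For S100a9 the differences were 1.94 ± 0.41 and 1.54 ± 0.41.

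The marrow libraries of this pair were widely spread. PHZ BM HSC replicate 3 held 2.26 times as much S100a8 and 2.84 times as much S100a9 as the mean of the other PHZ marrow libraries. Against the same mean it held 2.06 times as much S100a4 and 1.64 times as much S100a6. Within control BM HSC the highest library held 1.60 times the lowest for S100a8 and 2.10 times for S100a9. Between the marrow groups the fitted difference was -0.05 ± 0.29 for S100a8, although the ratio of mean FPKM was 1.02, and 0.41 ± 0.37 for S100a9. Leaving out PHZ BM HSC replicate 3 moved them to -0.45 and -0.09, and moved the differences of spleen against PHZ marrow to 2.16 for S100a8 and 2.04 for S100a9. The ratio of S100a8 to S100a9 FPKM ranged from 0.854 to 1.56 across all 8 libraries and was 1.10 and 1.25 in the spleen libraries, inside the marrow range.

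Because S100a8 and S100a9 are known as neutrophil and monocyte products, 22 other neutrophil genes were read beside them. All 22 were listed and none was under 1 FPKM in every library. Their summed level was 329, 227 and 212 FPKM in control BM HSC, 262, 302 and 439 FPKM in PHZ BM HSC and 418 and 602 FPKM in PHZ SP HSC, so it moved in the same direction as the S100a8 and S100a9 sum, which was 270.4 to 485 FPKM in control marrow, 288 to 740 FPKM in PHZ marrow and 1122 and 1413 FPKM in spleen. Defining neutrophil genes were unequal in level. The secondary granule gene Ngp measured 17.0 to 94.2 FPKM in the marrow libraries and 91.5 and 157 FPKM in spleen, and Camp measured 10.9 to 54.5 FPKM in marrow and 62.4 and 68.6 FPKM in spleen. Ly6g, which encodes an antigen of the Gr-1 antibody, measured 0 to 0.908 FPKM in control BM HSC, 0.657 to 2.53 FPKM in PHZ BM HSC and 3.04 and 8.16 FPKM in PHZ SP HSC (2.16 ± 0.45 in spleen against control marrow, limma adjusted p = 0.055). Also low or at 0 in some libraries were the granule protease genes Elane (0.225 to 18.6 FPKM) and Ctsg (0 to 9.48 FPKM, with 0 in all 3 control libraries) and the receptor gene Cxcr2 (0 to 1.38 FPKM). The sort removed cells that carry Gr-1, which marks neutrophils, while the lineage antibodies listed for the HSC sort include none against CD11b. The study states that sort purity was checked after sorting. The part of such cells in the S100a8 and S100a9 levels was not tested.

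The relation to the neutrophil list differed with the genes that stood for it. For each FPKM of the 22-gene sum, S100a8 and S100a9 together measured 0.952 to 1.69 FPKM in the marrow libraries (0.952 to 1.52 without PHZ BM HSC replicate 3) and 2.68 and 2.35 FPKM in the spleen libraries. Among the larger terms of that sum was Prtn3, the proteinase 3 gene, at 81.5 to 214 FPKM, which was higher in PHZ BM HSC than in control BM HSC (log2 difference 0.96 ± 0.15, limma adjusted p = 0.0075). The ratio was also taken against the secondary granule genes Camp, Ltf, Ngp and Lcn2 alone, a subset formed after their values were seen. It was 2.83 to 5.64 in control marrow, 6.63 to 7.68 in PHZ marrow and 6.35 and 5.50 in spleen. Spleen thus overlapped control marrow and lay below all PHZ marrow libraries. Of the 21 neutrophil genes tested, the metalloprotease gene Mmp9 (1.58 ± 0.31, adjusted p = 0.047) and Retnlg, a resistin-like gene (2.60 ± 0.50, adjusted p = 0.047), were higher in spleen than in control marrow, calls that voom on recovered reads did not make. The Mmp9 call was lost on leaving out any library except PHZ BM HSC replicate 3, and the Retnlg call on leaving out any except PHZ BM HSC replicates 1 and 3. None passed the adjusted limma threshold between spleen and PHZ marrow, where 13 of 21 had an unadjusted p below 0.05, beside 13.5% of all genes tested, and voom called 0. The median log2 difference of the 21 genes was 0.99, 1.22 and 0.27 in the 3 comparisons (spleen against control marrow, spleen against PHZ marrow, and PHZ against control marrow). S100a4 and S100a6 together measured 0.178 to 0.310 FPKM for each FPKM of the 22-gene sum in marrow and 1.35 and 1.15 FPKM in spleen.

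**Figure D2:**
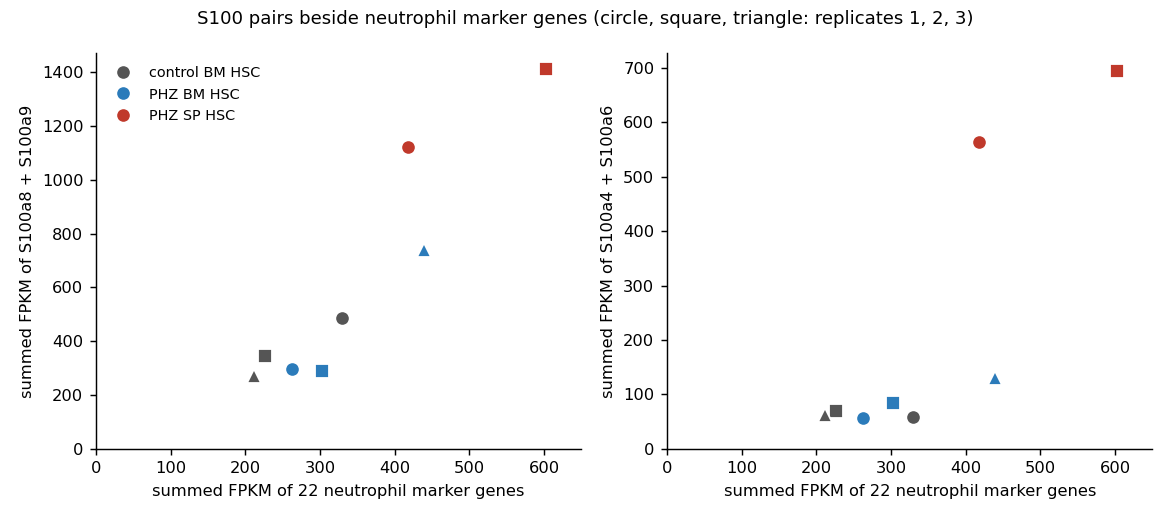
Summed FPKM of S100a8 and S100a9 (left, y axis) and of S100a4 and S100a6 (right, y axis) against the summed FPKM of 22 neutrophil genes (x axis) in each of the 8 libraries, both axes linear. On the y axis PHZ BM HSC replicate 3 lies between the other marrow libraries and the spleen libraries in both panels, at 740 FPKM on the left, below spleen values of 1122 and 1413 FPKM, and at 130.3 FPKM on the right, below spleen values of 563 and 695 FPKM. On the x axis it lies at 439 FPKM, above PHZ SP HSC replicate 1 at 418 FPKM.

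S100a10 and S100a11 shared the direction with a smaller size. S100a10 measured 113, 100.2 and 129 FPKM in control BM HSC, 92.7, 109 and 129 FPKM in PHZ BM HSC and 216 and 204 FPKM in PHZ SP HSC. Its spleen libraries lay above all marrow libraries, and the fitted log2 difference was 0.88 ± 0.17 against control marrow and 0.94 ± 0.17 against PHZ marrow. S100a11 measured 79.9, 63.4 and 89.7 FPKM in control BM HSC, 72.4, 79.2 and 95.7 FPKM in PHZ BM HSC and 144 and 124 FPKM in PHZ SP HSC. Here too no spleen library fell into the marrow range, with differences of 0.79 ± 0.18 and 0.70 ± 0.18. Neither gene separated the marrow groups, whose fitted differences were -0.06 ± 0.15 for S100a10 and 0.09 ± 0.16 for S100a11. S100a11 has a pseudogene copy, S100a11-ps, with which reads could be shared in counting.

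S100a1 and S100a13 did not set spleen apart from control marrow. S100a1 measured 69.0, 76.0 and 89.5 FPKM in control BM HSC, 92.1, 90.9 and 117 FPKM in PHZ BM HSC and 85.9 and 77.7 FPKM in PHZ SP HSC. Its PHZ marrow libraries were the highest, above all control libraries by a narrow margin (90.9 against 89.5 FPKM), with a fitted difference of 0.35 ± 0.15, and spleen was lower than PHZ marrow by -0.28 ± 0.17. S100a13 measured 55.5, 44.7 and 66.1 FPKM in control BM HSC, 54.8, 60.4 and 51.9 FPKM in PHZ BM HSC and 59.4 and 69.4 FPKM in PHZ SP HSC. Its groups overlapped in all 3 comparisons, with fitted differences of 0.23 ± 0.18, 0.20 ± 0.18 and 0.02 ± 0.16.

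Across the family, 4 of 8 members (S100a4, S100a6, S100a8 and S100a10) were past the limma threshold of an adjusted p below 0.05 in spleen against control marrow, where 0.758% of the 11347 genes tested were past it. The same 4 were past it in spleen against PHZ marrow (0.978% of all genes) and none in PHZ against control marrow (2.74% of all genes). Of 14 alternatives, the calls against control and PHZ marrow held in 14 and 13 for S100a4 and 13 and 12 for S100a6. They held in only 6 and 8 for S100a8 and in 6 and 9 for S100a10. Since these contrasts chose the members, nothing is read from these counts. All 8 passed the filter on low values. Group ranges did not overlap for 6 members, 7 members and 1 member in the 3 comparisons, beside 28.9%, 34.8% and 23.9% of all genes tested. The median log2 difference of the 8 was 1.30, 1.24 and 0.15, beside medians of -0.00, -0.02 and 0.01 over all genes tested. Without PHZ SP HSC replicate 2 the counts past the threshold were 1 and 0 in the comparisons with spleen, where 0.241% and 0.0536% of all genes were past it. Without PHZ SP HSC replicate 1 the same counts came to 2 and 1 (0.125% and 0.0626% of all genes). Setting aside PHZ BM HSC replicate 3 gave 5 and 5 (0.737% and 1.22% of all genes).

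**Figure D3:**
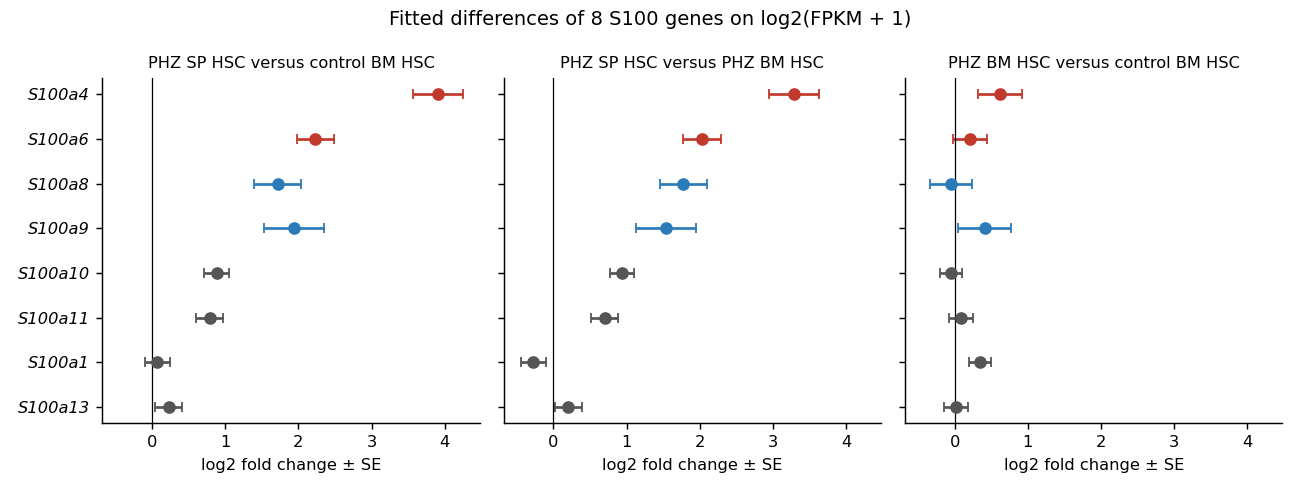
Fitted log2 differences on log2(FPKM + 1) (x axis, with SE bars) of the 8 S100 genes (y axis) in the 3 comparisons, from 1 limma fit over 8 libraries. The values fall from 3.91 for S100a4 to 0.07 for S100a1 in spleen against control marrow and lie between -0.06 and 0.62 in PHZ against control marrow.

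The order of the members by mean FPKM changed between organs. In control BM HSC the order was S100a8, S100a9, S100a10, S100a1, S100a11, S100a13, S100a6 and S100a4, in which the libraries of neighbours overlapped except between S100a10 and S100a1 and between S100a13 and S100a6. S100a4 had the lowest mean of the 8 there and ranked 1002 among the 11347 tested genes. In PHZ BM HSC it was seventh, at rank 563, and neighbours overlapped except S100a8 with S100a10 and S100a11 with S100a13. In PHZ SP HSC it was the third member, behind S100a8 and S100a9, at rank 45, while S100a8 ranked 25 and S100a9 ranked 32. The spleen libraries of S100a8 and S100a9 overlapped, as did those of S100a6 and S100a11, whereas both S100a4 libraries (427 and 516 FPKM) were below the S100a9 libraries (535 and 627 FPKM).

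Summed over the 8 genes, FPKM was 699 to 861 in control BM HSC, 663 to 1263 in PHZ BM HSC and 2189 and 2583 in PHZ SP HSC. S100a4 and S100a6 made up 6.80% to 11.7% of that sum in the marrow libraries and 25.7% and 26.9% in the spleen libraries. S100a8 and S100a9 made up 38.2% to 58.6% in marrow and 51.2% and 54.7% in spleen, so their share did not separate the organs. The other 4 genes made up 31.1% to 52.9% in marrow and 23.1% and 18.4% in spleen, although their summed FPKM was higher in spleen (505 and 475 FPKM) than in any marrow library (284 to 393 FPKM).

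**Figure D4:**
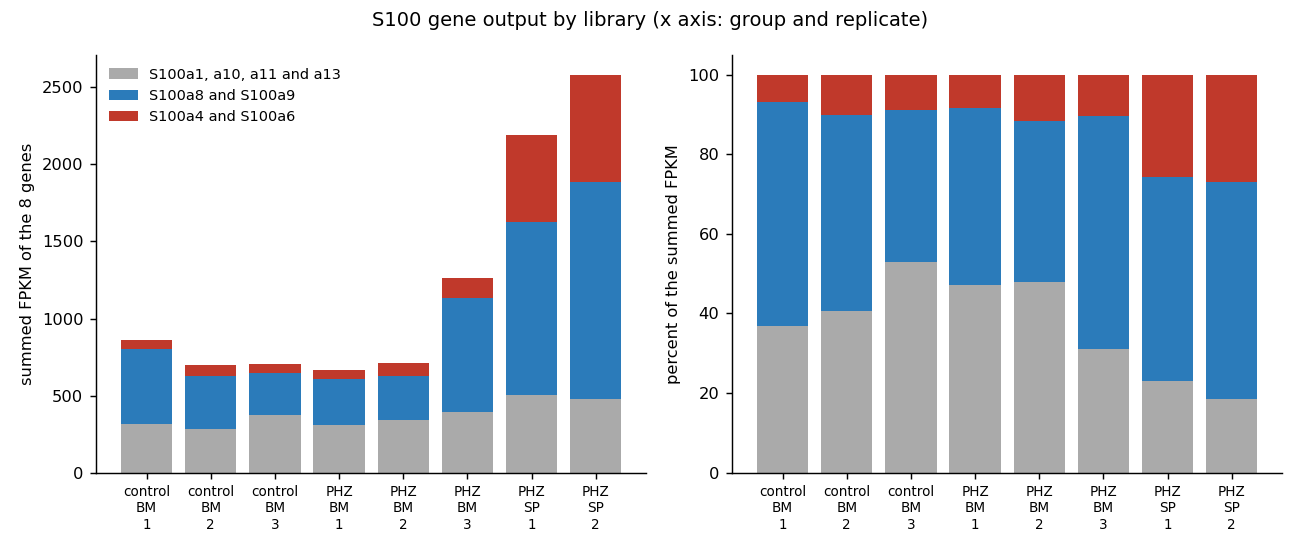
Summed FPKM of the 8 S100 genes (left, y axis) and its percent by gene set (right, y axis) in each library (x axis, group and replicate). The red part, S100a4 and S100a6, takes 6.80% to 11.7% of the sum in the 6 marrow bars and 25.7% and 26.9% in the spleen bars.

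The other 6 S100 genes in the tables were near the detection limit. S100a5 measured 0 to 5.01 FPKM, S100a16 0 to 1.99 FPKM, S100a7a 0 to 1.68 FPKM and S100g 0 to 1.49 FPKM, and S100a2 and S100b stayed below 1 FPKM in every library where they were listed. S100a5, which lies between S100a4 and S100a6 in the cluster, was at 0 in PHZ SP HSC replicate 1 and at 3.56 FPKM in PHZ SP HSC replicate 2, where its neighbours were at 516 and 179 FPKM. The 3 of these genes that passed the filter had no call in any comparison, and 0 of 3 had an unadjusted limma p below 0.05, and voom called 0.

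Proteins that S100 members dock to or signal through were measured next. Their genes were not part of the choice of members, but the lists were drawn up with earlier results of these data known, so they are no independent test. Of 46 such genes (annexins, intracellular partners and receptors), 41 were listed and 32 tested. In spleen against control marrow 3 were higher and 0 lower, in spleen against PHZ marrow 1 was higher, and in PHZ against control marrow 1 was higher, where 0.758%, 0.978% and 2.74% of all genes tested were past the threshold in either direction. The medians over the 32 genes were 0.36, 0.22 and 0.02 on the log2 scale, and 13, 14 and 5 of them had an unadjusted limma p below 0.05, beside 15.8%, 13.5% and 16.6% of all genes tested. These counts hold both directions, and 24, 24 and 16 of the 32 differences were above 0. Lower genes among them were Sdc4 in spleen against control marrow (-1.11 ± 0.29) and Il6ra in spleen against PHZ marrow (-0.84 ± 0.33). Cacybp was a lower gene between the marrow groups (-0.46 ± 0.16).

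Among annexins, the calcium-dependent membrane-binding partners of the S100 proteins, Anxa5 measured 107 to 110.4 FPKM in control BM HSC, 107 to 149 FPKM in PHZ BM HSC and 193 and 195 FPKM in PHZ SP HSC, and was higher in spleen than in control marrow (log2 difference 0.82 ± 0.15, limma adjusted p = 0.042). Anxa2, the partner of S100a10, measured 9.73, 8.74 and 7.73 FPKM in control BM HSC, 7.23, 6.59 and 10.9 FPKM in PHZ BM HSC and 19.0 and 23.6 FPKM in PHZ SP HSC. It was higher in spleen than in PHZ marrow (1.29 ± 0.25, adjusted p = 0.037), and against control marrow the difference was 1.19 ± 0.25 (adjusted p = 0.055). S100a10 exceeded Anxa2 in FPKM 8.63-fold to 16.7-fold in every library, with 11.4 and 8.63 in spleen. Anxa1, the partner of S100a11, had 34.9 to 38.4 FPKM in control marrow and 55.4 and 66.6 FPKM in spleen (0.73 ± 0.17, adjusted p = 0.080), and Anxa6 had 13.7 to 18.4 and 39.9 and 28.2 FPKM (1.07 ± 0.25, adjusted p = 0.081), neither past the threshold. The Anxa5 call held in 4 of 14 alternatives and was lost on leaving out any library except PHZ BM HSC replicate 3. The Anxa2 call held in 7 of 14 and was lost without either spleen library, without PHZ BM HSC replicate 1 or 2, or without control BM HSC replicate 3. It was also lost without the filter and with the replicate block.

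Of the other partners inside the cell, neither Myh9 nor Cacybp passed the threshold in any comparison. Myh9, the heavy chain of non-muscle myosin IIA, measured 7.59 to 10.03 FPKM in control BM HSC, 7.36 to 9.82 FPKM in PHZ BM HSC and 6.59 and 8.52 FPKM in PHZ SP HSC, with overlapping groups and differences of -0.23 ± 0.24 (adjusted p = 0.68) and -0.11 ± 0.24 (adjusted p = 0.89) for spleen against control and PHZ marrow. Cacybp measured 34.6 to 37.0 FPKM in control BM HSC, 23.9 to 28.7 FPKM in PHZ BM HSC and 33.1 and 42.0 FPKM in PHZ SP HSC. It did not pass the threshold between spleen and control marrow (0.05 ± 0.18, adjusted p = 0.93), between spleen and PHZ marrow (0.51 ± 0.18, adjusted p = 0.23) or between PHZ and control marrow (-0.46 ± 0.16, adjusted p = 0.15), although its PHZ marrow libraries lay below those of both other groups.

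Receptors of released S100 proteins were unequal in level. Bsg, which encodes basigin, measured 92.2 to 113 FPKM in all libraries, with a difference of 0.18 ± 0.14 in spleen against control marrow (adjusted p = 0.55). Tlr4 measured 0.557 to 3.25 FPKM, and Ager, which encodes the receptor for advanced glycation end products, stayed below 1 FPKM in all 8 libraries. Il10ra, the ligand-binding chain of the interleukin-10 receptor, was at 0, 0.885 and 1.51 FPKM in control BM HSC, 3.98, 5.72 and 9.20 FPKM in PHZ BM HSC and 6.44 and 6.15 FPKM in PHZ SP HSC. It was higher in PHZ marrow (2.06 ± 0.36, adjusted p = 0.012) and in spleen (2.12 ± 0.41, adjusted p = 0.047) than in control marrow, and between spleen and PHZ marrow the difference was 0.06 ± 0.41 (adjusted p = 0.97). With control values at or near 0, the fitted difference ranged from 1.68 to 4.07 between the marrow groups over the alternatives. The marrow call was lost without PHZ BM HSC replicate 2, with a pseudocount of 0.1 FPKM and with voom. The spleen call held in 4 of 14 alternatives and was lost on leaving out any library except control BM HSC replicate 3 and PHZ BM HSC replicate 3.

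**Figure D5:**
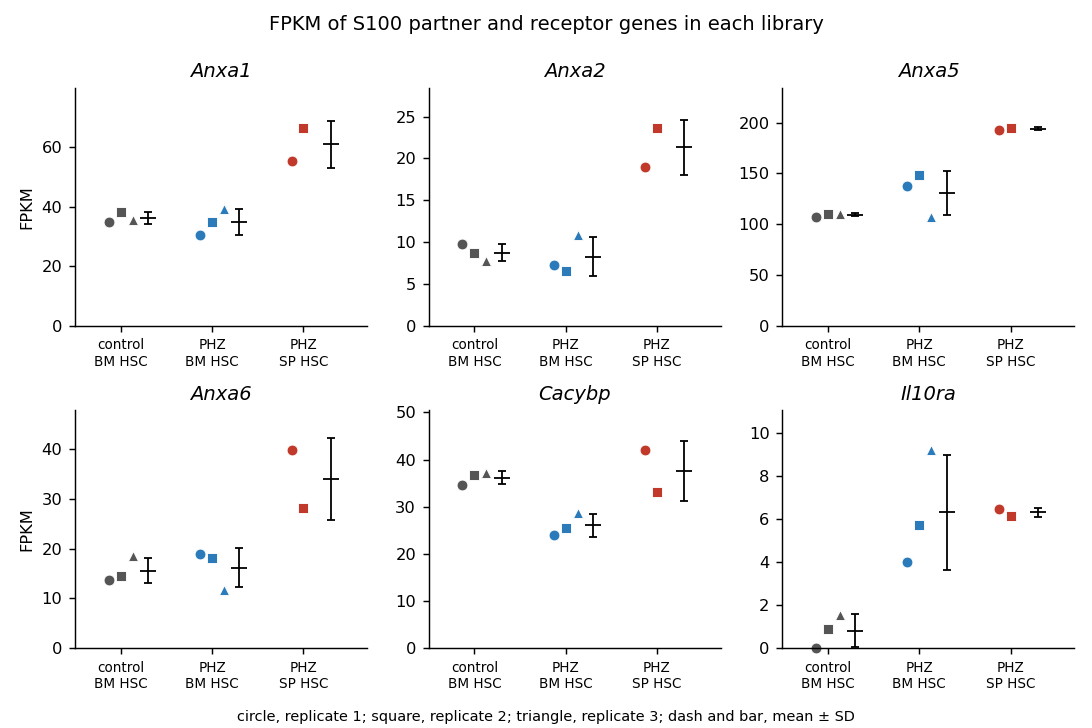
FPKM (y axis, linear, from 0) of 4 annexin genes, Cacybp and Il10ra in each library by group (x axis). Points are libraries, and the dash with bars is the mean ± SD over 3, 3 and 2 libraries. Anxa2 lies at 6.59 to 10.9 FPKM in the marrow libraries and at 19.0 and 23.6 FPKM in spleen, while Il10ra spans 3.98 to 9.20 FPKM in PHZ marrow and lies at 6.44 and 6.15 FPKM in spleen.

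Genes of other families near the cluster were measured to see whether the difference extended along the chromosome. From 500 kb before the outermost S100 gene to 500 kb beyond the last, RefSeq places 145 genes, of which 16 of other families were tested. All 16 end before the start of S100a1, so nothing was measured between the S100 genes or beyond S100a10. In spleen against control marrow 0 of these 16 were past the limma threshold, with differences from -1.31 to 0.90 and a median of -0.00, and 0 had an unadjusted p below 0.05 or a call by voom. The closest tested neighbour, Chtop (90498539 to 90509527), which encodes a chromatin and mRNA export factor and ends just before S100a1, measured 33.7 to 34.8 FPKM in control BM HSC and 36.6 and 31.2 FPKM in PHZ SP HSC (-0.03 ± 0.17, adjusted p = 0.96). The ribosomal protein gene Rps27 (90212667 to 90213648) was the exception in the other comparisons, at 2.75 to 3.36 FPKM in control BM HSC, 11.1 to 14.9 FPKM in PHZ BM HSC and 2.58 and 2.64 FPKM in PHZ SP HSC. It was higher in PHZ than in control marrow (1.81 ± 0.21, adjusted p = 0.0014) and lower in spleen than in PHZ marrow (-1.999 ± 0.24, adjusted p = 0.0042), whereas S100a4 was highest in spleen. The second call was lost without either spleen library, and voom made neither call (adjusted p = 0.081 and 0.18).

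Genes with the most similar profile to each of the 4 were ranked by Pearson's r of log2(FPKM + 1) over the 8 libraries, which share 2 spleen libraries that are high for all of them, so r is a description. For S100a4 the closest were Slc4a1, which encodes the red cell anion exchanger band 3 (r = 0.98), the red cell spectrin gene Sptb (0.98), Pdia2 (0.98), the lysosomal protease gene Lgmn (0.98) and Redrum (0.97), with S100a6 at 0.97, S100a8 at 0.90 and S100a9 at 0.87. For S100a6 they were Redrum (0.99), Ehd2 (0.99), Pdia2 (0.98), Anxa1 (0.97) and S100a4. Of these low genes, Sptb spanned 0.118 to 1.69 FPKM, Redrum 0 to 1.68 FPKM, Pdia2 0 to 2.57 FPKM and Ehd2 0.0304 to 4.09 FPKM. All of them stayed below 1 FPKM in every marrow library, and Sptb and Redrum had no call in any comparison. For S100a8 the closest was Anxa2 (0.99), followed by S100a9 (0.96), S100a6 (0.96), Plec (0.95) and Ywhah (0.95). For S100a9 the closest was Wfdc21 (0.99), a gene of the neutrophil list, followed by Bst2 (0.97), S100a8 (0.96), Gch1 (0.96) and Hsph1 (0.96). Wfdc21 measured 13.9 FPKM in PHZ BM HSC replicate 3, 1.43 to 4.71 FPKM in the other marrow libraries and 20.6 and 18.8 FPKM in spleen. Slc4a1 measured 5.04 FPKM in that library, 2.11 to 5.53 FPKM in the other marrow libraries and 19.1 and 21.9 FPKM in spleen.

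Markers of other cells that the sort could hold moved with S100a4 and S100a6 to different degrees. The lineage antibodies of the sort (Ter119, B220, Gr-1, CD2, CD3 and CD8) remove mature erythroid, B and T cells and neutrophils that carry these antigens. The summed FPKM of 14 erythroid genes was 25.0 to 37.3 in control BM HSC, 29.6 to 53.2 in PHZ BM HSC and 193 and 123 in PHZ SP HSC, none of them was under 1 FPKM in all libraries, and 7 of 14 were higher in spleen than in control marrow, among them Cldn13 (adjusted p = 0.0016) and Slc4a1 (adjusted p = 0.0039) by limma, while voom called 4 of 14, beside 0.758% of all genes tested by limma. In spleen against PHZ marrow 2 of 14 were higher (0.978% of all genes). The Slc4a1 call was lost without either spleen library, and the calls of Klf1, Tfrc, Trim10 and Ermap held in 5, 6, 4 and 3 of the alternatives. Of 17 monocyte and macrophage genes, 7, Csf1r, Adgre1, Ccr2, Fcgr1, Cx3cr1 and Marco among them, were under 1 FPKM in every library where they were listed. Lyz2, the lysozyme gene, was the most abundant of the list at 181 to 310 FPKM. Cd68, a macrophage lysosomal gene, measured 0, 4.58 and 8.48 FPKM in control BM HSC, 4.93, 9.74 and 16.7 FPKM in PHZ BM HSC and 34.4 and 57.6 FPKM in PHZ SP HSC (3.60 ± 0.76 in spleen against control marrow, limma adjusted p = 0.058). The summed level was 255 to 292, 206 to 265 and 355 and 361 FPKM. In the 3 comparisons 0 of 8 tested genes were past the threshold, 4, 3 and 1 had an unadjusted limma p below 0.05, and voom called 0. Differences above 0 were found for 6, 4 and 6 of the 8. C1qb, a complement gene, was below 0.05 in both spleen comparisons but was lower in spleen (-1.31 ± 0.55 and -1.35 ± 0.55). It measured 0.188 to 3.52 FPKM in the marrow libraries and 0.0822 and 0 FPKM in spleen. Of 18 listed NK and T cell genes, 7, Ncr1 and Cd3e among them, were under 1 FPKM throughout, the sum was 28.0 to 70.5, 40.6 to 60.3 and 61.1 to 72.0 FPKM. Of 6 tested, beside 0.758% of all genes, 1 was higher in spleen than in control marrow, namely Klrb1c (14.7 and 18.4 FPKM against 0.555 to 1.40 FPKM, limma adjusted p = 0.00087). Nkg7, the most abundant gene of that list, differed by -0.26 ± 0.37 (adjusted p = 0.77). Klrb1c was also higher in spleen than in PHZ marrow (2.30 ± 0.28, limma adjusted p = 0.0048), beside 0.978% of all genes. Its call against control marrow held in all 14 alternatives, and that against PHZ marrow was lost without either spleen library. B cell genes summed to 27.7 to 52.0, 30.3 to 31.6 and 43.8 to 55.5 FPKM with Pax5 and Ebf1 below 1 FPKM, dendritic cell genes to 199 to 241, 128 to 185 and 239 to 251 FPKM, and mast cell, basophil and eosinophil genes to 7.30 to 9.08, 8.75 to 13.2 and 15.01 to 19.8 FPKM. Megakaryocyte genes went the other way, from 257 to 309 FPKM in control BM HSC and 217 to 259 in PHZ BM HSC to 196 and 208 in PHZ SP HSC. Fibroblast and endothelial genes summed to 7.70 to 12.0 FPKM over all libraries, with the collagen genes Col1a1, Col1a2 and Col3a1 below 1 FPKM in each, although S100a4 is also known as a fibroblast marker. The part of such cells in the S100a4 and S100a6 levels was not tested.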

How the data were processed

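HSC RNA was amplified by SMART-Seq2 and the cDNA was fragmented by Nextera XT, without molecular identifiers. Per the labels and the study's methods, reads were mapped to mm10 with STAR and compared with DESeq2. The counter, gene lengths and strand setting are not given in the sources used here. The authors deposited 3 tables, 1 for each group, with FPKM per library. Separate tables of their own DESeq2 comparisons (fold changes and p-values) were not used. Column names of the marrow libraries say WBM where the sample titles say BM HSC.

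All 110442 FPKM values above 0 were whole multiples of a read (100%, within 0.0001 read, or 0.005 read for Rn45s), so reads were recovered, and FPKM were put on 1 set of median-of-ratios factors, which moved a library by at most 1.05%. Of 15142 genes in all 3 tables, the 11347 with at least 1 FPKM in at least 2 libraries were tested with limma 3.58.1 (R 4.3.3; trend and robust options) on log2(FPKM + 1), 8 libraries in 1 fit, 2-sided, and p-values were adjusted by Benjamini-Hochberg across the tested genes, with a threshold of 0.05. A fold change on this scale understates the change of low genes. The study takes its printed n as independent animals but prints none for these libraries, so p-values measure the spread between these libraries. The fit was tested on simulated data.

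The S100 members, the partner, receptor and marker lists and the tests were chosen with earlier results of these data known. Genes named were the 8 members, the other S100 genes as ranges, 9 partners and receptors whatever their values, partners, receptors and neighbours past the threshold, the 5 genes most like each of S100a4, S100a6, S100a8 and S100a9, and defining markers. Genes beyond these, such as C1qb, Camp, Capns1, Cd36, Cd68, Cd74, Chtop, Csf3r, Il6ra, Lyz2, Mmp9, Ngp, Prtn3, Retnlg and Sdc4, were named after their values were seen. Some genes that the rule or a list covers are not reported here. Alternatives were another pseudocount, no filter, voom on recovered reads, only the groups compared, the replicate number as a block, FPKM as deposited, and leaving out each library.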

Additional observations from a re-analysis of the deposited data

How the results depend on the processing

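Of 336 fitted differences of the 8 members (3 comparisons, 14 alternatives), 120 were left as they were (within 1e-05) because the alternative does not enter the fitted value, and the other 216 moved by less than the replicate SD. That SD includes the library left out, so leaving out a marrow library could not move a value past it. Nothing is read from the size of those moves. S100a4 ranged from 3.69 to 4.15 in spleen against control marrow and from 2.93 to 3.64 against PHZ marrow, S100a6 from 2.03 to 2.43 and 1.82 to 2.26, S100a8 from 1.51 to 1.93 and 1.55 to 2.16, and S100a9 from 1.69 to 2.22 and 1.27 to 2.04. Between the marrow groups, where none was past the threshold, S100a6, S100a8, S100a9, S100a10, S100a11 and S100a13 took both signs.

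Counts of genes called depended more on the setting, and the cause was not tested. In spleen against control marrow, 86 genes became 39 with a pseudocount of 0.1 FPKM, 46 without the filter and 44 with only these 2 groups, and the 3 partner and receptor genes became 0, 0 and 1. In spleen against PHZ marrow, 111 became 62 without the filter and 65 with voom on recovered reads, and the 1 partner gene became 0 without the filter, 2 with voom and 2 with only these groups. In PHZ against control marrow, 311 became 205 without the filter, and the 1 receptor gene became 0 with a pseudocount of 0.1 FPKM and 0 with voom. Voom called 74, 65 and 259 genes.

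Leaving out 1 library gave 14 to 83, 6 to 146 and 115 to 306 genes, and 0 to 3, 0 to 2 and 0 to 1 partner and receptor genes. The fewest genes were called without PHZ SP HSC replicate 1 (14, 7) or replicate 2 (27, 6) in the spleen comparisons and without PHZ BM HSC replicate 2 (115) or 1 (119) between the marrow groups. The lone spleen library is then assumed to vary like the other groups.

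No pairing by replicate number was seen, as deviations of same-numbered libraries correlated at -0.00791 to 0.0603. Deviations were taken within groups of few libraries, so a pairing could be missed. Whether marrow and spleen libraries came from the same mice is not given in the sources used here. With the replicate block, partner and receptor genes fell to 1 in spleen against control marrow and 0 in spleen against PHZ marrow and stayed at 1 between the marrow groups, and genes called were 73, 112 and 294. Depth limits the 6 low S100 genes, which rest on at most 36 reads in a library.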

Other observations

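Other EF-hand genes bind calcium through the same fold. Of 24 tested (calpains, actinins and calcium sensors among them), 1 was lower in spleen than in control marrow, 1 was higher in spleen than in PHZ marrow and 1 was lower in PHZ than in control marrow, beside 0.758%, 0.978% and 2.74% of all genes tested in either direction. Of the 24, 17, 18 and 7 had a difference above 0, with medians of 0.10, 0.12 and -0.16 on the log2 scale. Capns1, the small subunit of the calpain proteases, measured 20.9, 18.2 and 20.5 FPKM in control BM HSC, 12.5, 12.7 and 13.8 FPKM in PHZ BM HSC and 6.53 and 8.03 FPKM in PHZ SP HSC. It was lower in spleen than in control marrow (-1.34 ± 0.20, limma adjusted p = 0.013), a call that held in 12 of 14 alternatives and was lost with only the 2 groups compared or without PHZ SP HSC replicate 1.

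Of the receptor list, Sdc4, a cell-surface proteoglycan gene, had the lowest difference in spleen against control marrow, at 7.43, 4.26 and 5.28 FPKM in control BM HSC, 4.72, 3.93 and 3.58 FPKM in PHZ BM HSC and 1.58 and 2.57 FPKM in PHZ SP HSC (-1.11 ± 0.29, limma adjusted p = 0.099), which did not pass the threshold. Cd36, a scavenger receptor gene that also marks erythroid progenitors, measured 0.228 to 0.555 FPKM in control BM HSC, 0.474 to 0.593 FPKM in PHZ BM HSC and 2.19 and 3.45 FPKM in PHZ SP HSC (1.44 ± 0.31, adjusted p = 0.061).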
